A study of Mus musculus with 2 samples.

Results

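The 8 red blood cell and erythroid genes described here are Hba-a1, Hbb-b1, Hbb-b2, Hbb-bs, Alas2, Slc4a1, Gata1 and Klf1. They were chosen by gene symbol and known function, with earlier results of these data known, and no measured value entered the rule. All 8 were found among the 24346 gene symbols of the expression tables. The tables hold bulk mRNA sequencing of mouse dorsal skin wounds from WT and PU.1-/- (labelled PU.1_KO) littermates, both labelled C57BL/6J and harvested 24 h after wounding of 1-day-old pups. Both genotypes were wounded, and no other agent is named. PU.1, encoded by Spi1, is a transcription factor of myeloid and lymphoid development, and the study describes the mutant as lacking macrophages, mast cells, neutrophils and T cells. There was 1 library per genotype, and how many pups stood behind each, and their sex, was not found in the text used here. The wound is described as incisional in the study's methods and as excisional in the design text. All differences below compare 2 libraries, with no replicate check and no p-value. In bulk tissue, fewer red blood cells and less RNA per cell cannot be told apart.

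Red blood cells arise from erythroid precursors under the transcription factors GATA1 and KLF1, which bind GATA and CACCC motifs at globin and heme synthesis genes. The precursors fill with hemoglobin, a tetramer of alpha and beta globin chains that each hold a heme. They then lose the nucleus, and reticulocytes, the youngest circulating red cells, still carry globin mRNA. Newborn mice have many reticulocytes in blood. GATA1 is also a factor of mast cells, eosinophils and megakaryocytes. PU.1 and GATA1 can oppose each other's activity in blood progenitors.

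Mouse globin genes come in near-identical copies, and the sequences below show how little separates them. C57BL/6 mice carry the single haplotype of the beta globin locus, with the adult genes Hbb-bs and Hbb-bt, whereas Hbb-b1 and Hbb-b2 name the major and minor adult genes of the diffuse haplotype of other strains. The symbol Hbb-bt matched none of the 24346 symbols used here, whereas Hbb-b1, Hbb-b2 and Hbb-bs each matched. The beta globin values below therefore hold no level under the name of Hbb-bt, and in which rows its reads were counted, if in any, was not tested. In the GENCODE transcripts of GRCm38, the coding sequences of Hbb-bs and Hbb-bt differ at 1 of 441 bases, an identity of 99.8%. Hba-a1 and Hba-a2 differ at 1 of 426 coding bases, an identity of 99.8%. The stretches below run from coding base 352 to 441 of the beta genes (chromosome 7, minus strand) and from 336 to 425 of the alpha genes (chromosome 11, plus strand). The single capital marks the base that differs.
Hbb-bs: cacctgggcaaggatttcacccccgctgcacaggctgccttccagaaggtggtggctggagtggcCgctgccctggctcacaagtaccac
Hbb-bt: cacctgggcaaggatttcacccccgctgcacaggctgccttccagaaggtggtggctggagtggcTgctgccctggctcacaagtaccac
Hba-a1: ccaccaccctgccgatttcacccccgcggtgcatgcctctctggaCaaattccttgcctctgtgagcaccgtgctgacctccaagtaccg
Hba-a2: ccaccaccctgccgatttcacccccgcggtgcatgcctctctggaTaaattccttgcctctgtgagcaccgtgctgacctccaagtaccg
Of the 554 windows of 75 bases, the read length, in the Hbb-bs transcript, 356 (64.3%) were also found in Hbb-bt. Of the 625 windows in the Hba-a1 transcript, 389 (62.2%) were also found in Hba-a2. A read from such a window has no single source, and how the authors' counting treated it was not tested.

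Promoters were taken from RefSeq on GRCm38.p6 for 5 of the 8 genes, to show which motif letters lie beside the genes whose levels are compared. Each sequence gives the 120 bases before the start of the gene, on the gene's strand. They are chr7:103827929-103828048 for Hbb-bs (minus), chr11:32283552-32283671 for Hba-a1 (plus), chrX:150547297-150547416 for Alas2 (plus), chrX:7967911-7968030 for Gata1 (minus) and chr8:84901862-84901981 for Klf1 (plus). Capitals mark the GATA factor motif GATAA, the KLF motif CACCC, the box CCAAT and the box TATAA. Each was searched on both strands and some therefore appear as the reverse complement. The RefSeq start used for Gata1 lies inside the span given for that gene.
Hbb-bs: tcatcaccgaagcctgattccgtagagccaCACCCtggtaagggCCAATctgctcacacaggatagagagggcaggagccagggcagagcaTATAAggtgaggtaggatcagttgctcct
Hba-a1: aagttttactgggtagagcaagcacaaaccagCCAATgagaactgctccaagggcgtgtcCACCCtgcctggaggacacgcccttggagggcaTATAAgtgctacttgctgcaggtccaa
Alas2: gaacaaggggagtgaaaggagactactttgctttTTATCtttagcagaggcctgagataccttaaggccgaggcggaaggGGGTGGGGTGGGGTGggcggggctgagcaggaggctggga
Gata1: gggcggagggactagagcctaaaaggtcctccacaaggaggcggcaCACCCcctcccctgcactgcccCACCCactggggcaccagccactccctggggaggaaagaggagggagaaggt
Klf1: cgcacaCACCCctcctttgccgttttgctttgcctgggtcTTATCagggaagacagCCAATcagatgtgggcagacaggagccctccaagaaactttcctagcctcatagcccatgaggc
CACCC was found in all 5, with 3 copies in Alas2, 2 in Gata1 and 1 in each of the others. Over 32851 mouse promoters of the same length, 31.7% held CACCC. The GATA motif was found in Alas2 and Klf1, against 10.5% of all promoters. The TATAA box stood in both globin promoters, against 11.8% of all promoters, and the CCAAT box in the globin promoters and Klf1, against 21.3%. No promoter of Hbb-b1, Hbb-b2 or Slc4a1 was used here.

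Levels are given as FPKM, the fragments of a gene scaled by transcript length and library depth, which allows genes to be compared per length. The targeted gene Spi1 had 35.4 FPKM in WT wounds and 1.45 FPKM in PU.1-/- wounds. The sex-linked genes differed as well. Xist, which is transcribed from the inactive X chromosome, was listed at 0 in WT wounds and at 9.48 FPKM in PU.1-/- wounds, and Eif2s3y, Ddx3y, Uty and Kdm5d of the Y chromosome were at 2.16 to 38.5 FPKM in WT wounds and at 0 in PU.1-/- wounds. Among the 8 genes, Alas2 and Gata1 lie on the X chromosome. At 10 FPKM or more in both libraries, the median log2 ratio was 0.00058 over 169 X-linked genes and -0.0036 over 6091 autosomal genes. The part of the sex of the pups in the Alas2 and Gata1 levels was not tested, and with 1 library per genotype, sex and genotype cannot be told apart.

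The 8 genes spanned more than 3 orders of magnitude. In WT wounds the order from high to low was Hbb-b1, Hba-a1, Hbb-b2, Hbb-bs, Alas2, Gata1, Slc4a1 and Klf1. In PU.1-/- wounds Slc4a1 stood above Gata1, Klf1 stood above Gata1, and the rest kept their order. No spread between animals stands behind this order. By rank among all genes, Hbb-b1 stood at 160 in WT wounds and at 150 in PU.1-/- wounds, while Klf1 ranked 15010 and 14811. The summed FPKM of the 8 genes was 1460 in WT wounds and 1854 in PU.1-/- wounds, a ratio of 1.27.

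**Figure D1:**
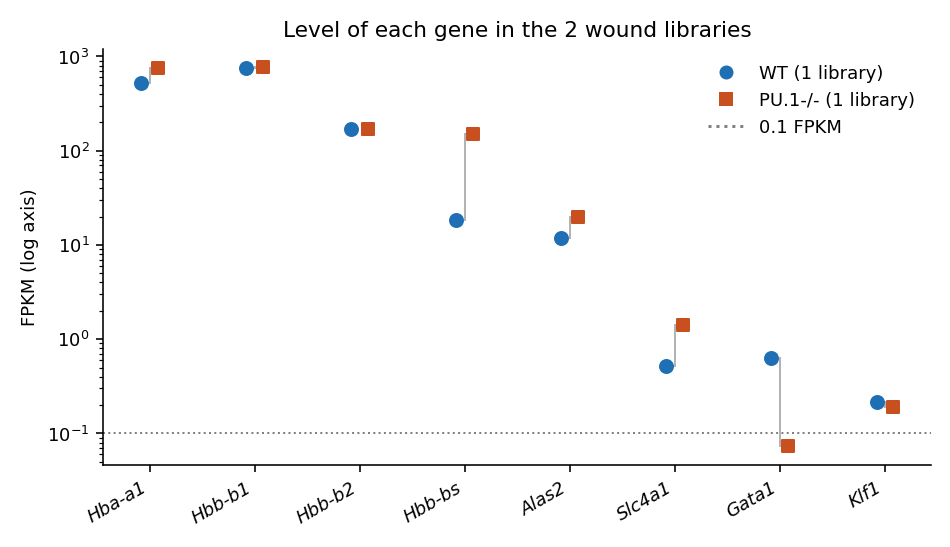
FPKM of each of the 8 genes on a log axis in WT wounds (blue circles) and the PU.1-/- library (orange squares), 1 library per genotype, with no error bars; values are plotted as deposited, and the dotted line marks 0.1 FPKM, to which lower values were raised only for the ratios. Hbb-b1 sits at 744 and 763 FPKM, Hbb-bs at 18.4 and 150.0, and Gata1 at 0.639 and 0.0742.

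A gene was counted as higher or lower where its FPKM, with values below 0.1 raised to 0.1, differed at least 2-fold. Hbb-bs and Slc4a1 were higher in PU.1-/- wounds, Gata1 was lower, and the other 5 genes differed less than 2-fold. Among the 16298 genes with at least 0.1 FPKM in either library, 3.47% were higher and 6.49% were lower by the same rule. Among genes with at least 10 FPKM in either library, as Hbb-bs is, 0.882% were higher. The median log2 ratio of the 8 genes was 0.29 (PU.1-/- over WT), beside -0.01 over all 16298 genes. Sequencing depth, recovered from the steps in low FPKM values, was 1.38e+07 fragments for WT wounds and 1.58e+07 for PU.1-/- wounds. Exact 95% binomial (Clopper-Pearson) intervals of each ratio were computed from the estimated reads. They cover counting error only, not error in sharing reads among near-identical copies, and reads without molecular identifiers are not independent molecules.

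**Figure D2:**
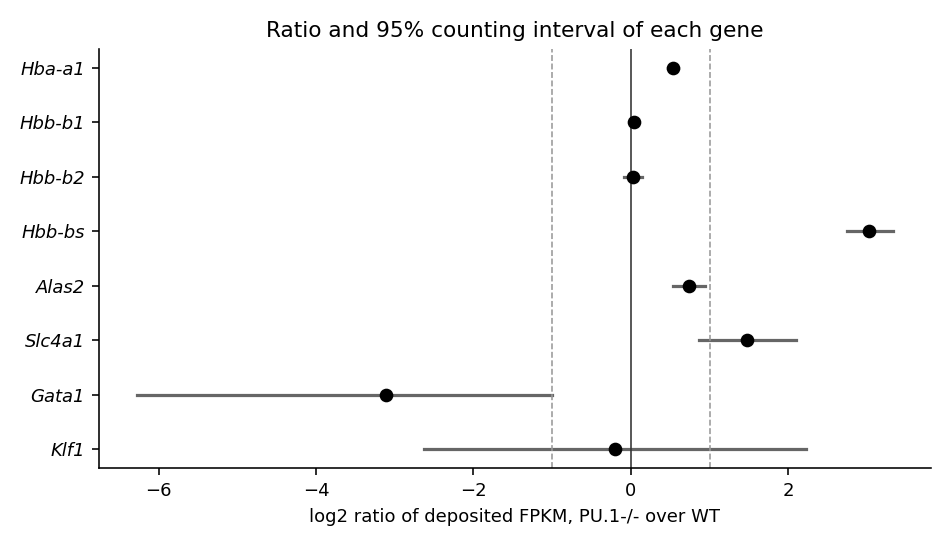
Log2 ratio of the deposited FPKM, PU.1-/- over WT, for each gene (points) with its 95% counting interval (bars, shorter than the point for Hba-a1 and Hbb-b1); dashed lines mark a 2-fold difference and the solid line no difference. Hbb-bs lies at 3.03, beyond the dashed line with its whole interval, while the interval of Slc4a1 reaches below 2-fold and that of Klf1 spans both dashed lines.

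Hba-a1, which encodes the alpha globin chain (chr11:32283672-32284486, plus strand), had 516 FPKM in WT wounds and 748 FPKM in PU.1-/- wounds. The ratio was 1.45 (1.39 to 1.51), from about 3548 and 5904 reads. The difference was larger than counting error and under 2-fold. Its near-identical copy Hba-a2 had 0.0312 and 0.0313 FPKM, so the Hba-a1 row carried almost all the alpha globin signal. The Hba-a2 levels correspond to 0.152 and 0.175 estimated reads, less than 1 whole read in each library. How reads were shared between the 2 copies was not tested.

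The beta globin rows did not differ alike, and how reads of near-identical copies were shared among them was not tested. Hbb-b1 had 744 FPKM in WT wounds and 763 in PU.1-/- wounds, a ratio of 1.03 (0.989 to 1.07). Hbb-b2 had 168 and 171 FPKM, a ratio of 1.02 (0.942 to 1.10). Both intervals include 1, and the transcript length of Hbb-bt stood in for the lengths of these 2 genes when reads were estimated. The level of Hbb-b1 over Hbb-b2 was 4.43 in WT wounds and 4.46 in PU.1-/- wounds.

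Hbb-bs (chr7:103826523-103827928, minus strand) had 18.4 FPKM in WT wounds and 150.0 FPKM in PU.1-/- wounds. The ratio was 8.16 (6.70 to 10.1), from about 108 and 1015 reads. This was the largest ratio upward of the 8 genes, and it moved the gene from rank 4669 to rank 569 of all genes. Hbb-bs made up 1.98% of the summed FPKM of the 3 beta globin rows in WT wounds and 13.8% in PU.1-/- wounds. Hbb-b1 made up 80.0% and 70.4%, and Hbb-b2 18.1% and 15.8%. Whether the strain background at the beta globin locus, or the assignment of reads among its copies, differed between the libraries was not tested.

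Summed over the 3 rows, which depends less on how reads were shared among copies, beta globin was 930 FPKM in WT wounds and 1085 FPKM in PU.1-/- wounds. The ratio was 1.17 (1.13 to 1.20). The sum of Hbb-b1 and Hbb-b2 alone was 912 and 935 FPKM, a ratio of 1.03, so that most of the higher sum lay in Hbb-bs. Alpha over beta globin was 0.555 in WT wounds and 0.690 in PU.1-/- wounds. All adult globin rows together held 0.204% of all FPKM in WT wounds and 0.267% in PU.1-/- wounds.

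**Figure D3:**
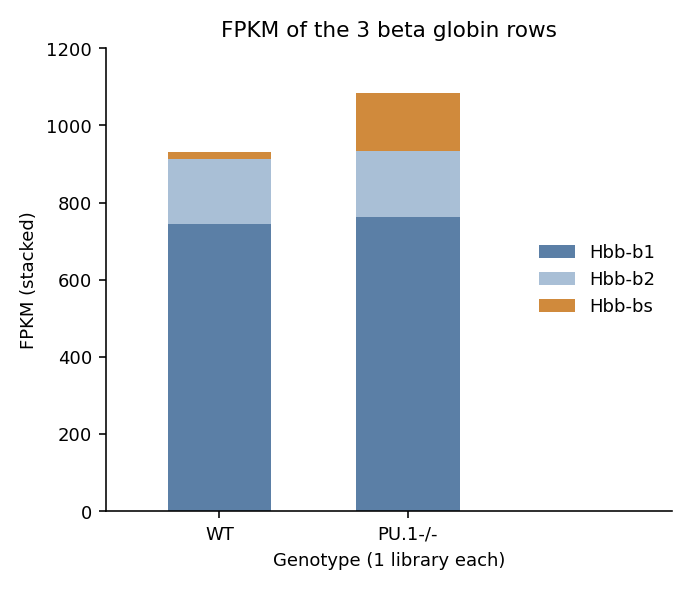
Stacked FPKM of Hbb-b1, Hbb-b2 and Hbb-bs in the WT and PU.1-/- libraries, 1 bar per library, axis from 0 and no error bars. The Hbb-b1 and Hbb-b2 segments have nearly the same height in both bars, and the Hbb-bs segment grows from 18.4 to 150.0 FPKM.

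Embryonic globins, made mainly by the primitive red cells of the embryo, were at or near 0. Hbb-y was listed at 0 in WT wounds and at 1.08 FPKM in PU.1-/- wounds, about 7 reads. Hbb-bh1 was listed at 0 and 0.158 FPKM, about 1 read, and Hbb-bh2 at 0 in both. Hba-x, the embryonic alpha-like gene, had 0.187 and 0.325 FPKM. The theta globins were at 0.369 and 0.321 FPKM (Hbq1a) and at 0.135 and 0.117 FPKM (Hbq1b). Of the 5 of these other globin rows with at least 0.1 FPKM, Hbb-y was counted as higher and none as lower, and a fold against a value of 0 is not given.

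Alas2 encodes the erythroid form of 5-aminolevulinate synthase, the first enzyme of heme synthesis (chrX:150547417-150570622, plus strand). It had 11.9 FPKM in WT wounds and 19.9 FPKM in PU.1-/- wounds. The ratio was 1.66 (1.44 to 1.92), from about 302 and 577 reads, above 1 and below the 2-fold rule over its whole interval. With the smallest whole read numbers that give the same ratio, 11 and 21, the lower bound was 0.766, below 1. These numbers are a lower limit and stand far below the reads estimated from depth and transcript length. Alas2 stood at 2.31% of the Hba-a1 level in WT wounds and at 2.65% in PU.1-/- wounds. Alas1, the form used in other cells, had 35.5 FPKM in both, so that the level of Alas2 over Alas1 was 0.336 and 0.560. The other 14 genes of heme synthesis all had at least 0.1 FPKM, and none differed 2-fold. Their log2 ratios ran from -0.46 to 0.11 with a median of -0.11. The highest levels among them were those of Tmem14c, a mitochondrial porphyrin transporter, at 102 and 91.9 FPKM, of Glrx5, needed for iron-sulfur clusters, at 74.0 and 60.8 FPKM, and of Urod, a porphyrin decarboxylase, at 35.7 and 35.8 FPKM.

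Slc4a1 encodes band 3, the anion exchanger of the red cell membrane (chr11:102348820-102365281, minus strand). It had 0.514 FPKM in WT wounds and 1.43 FPKM in PU.1-/- wounds. The ratio was 2.78 (1.82 to 4.27), from about 31 and 98 reads, and the lower bound falls short of 2-fold. With values below 1 FPKM raised to 1, the log2 ratio of Slc4a1 was 0.52 instead of 1.48, and the gene no longer passed the 2-fold rule. Slc4a1 stood at 0.0996% of the Hba-a1 level in WT wounds and at 0.191% in PU.1-/- wounds.

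Of 19 further genes of the red cell membrane, 17 had at least 0.1 FPKM, with a median log2 ratio of 0.57. By the 2-fold rule 2 of them were higher and none lower, against 3.47% and 6.49% of all genes. Both of the higher genes stayed under 1 FPKM. Among them, and named after its values were seen, was Icam4, a blood group adhesion molecule, listed at 0 and 0.271 FPKM. Icam4 rests on 0 and about 4 reads, and the lower bound of its interval was 0.575, below 1. The highest levels of the list were those of the water channel Aqp1 (64.9 and 99.1 FPKM), the protein 4.1 gene Epb41 (19.5 and 19.4 FPKM) and Gypc, which encodes glycophorin C (10.6 and 11.2 FPKM). Genes of this list are also used outside red cells, Aqp1 in endothelium for example. The red cell gene Epb42, which encodes protein 4.2, was close to 0, at 0.110 and 0.0769 FPKM. It rests on about 6 and 5 reads, with an interval of 0.175 to 2.85. Xk (0.402 and 0.596 FPKM) and Dmtn (0.409 and 0.565 FPKM) of the same list went the other way. Both were named after their values were seen, and their intervals also include 1. Rhag was listed at 0 in both libraries.

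Sptb, Ank1 and Tmod1, which encode parts of the red cell skeleton and are also expressed in muscle, were named after their values were seen. Sptb had 4.53 and 7.90 FPKM, Ank1 1.94 and 3.56 FPKM, and Tmod1 4.28 and 7.59 FPKM. The 10 skeletal muscle markers summed to 9520 FPKM in WT wounds and 15915 FPKM in PU.1-/- wounds, with a median log2 ratio of 0.67. By the 2-fold rule 3 of these markers were higher, against 3.47% of all genes with at least 0.1 FPKM. Acta1, the skeletal actin gene, had 3224 and 5955 FPKM, and Mylpf, a fast muscle myosin light chain, 1969 and 3113 FPKM. The 10 endothelial markers, of the vessels that hold the blood, summed to 259 and 286 FPKM with a median log2 ratio of 0.15, and none differed 2-fold. Pecam1 had 65.3 and 78.7 FPKM, and Cdh5 33.8 and 41.8 FPKM. The part of muscle and of vessel content in the levels of the erythroid genes was not tested.

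Gata1, the GATA factor of the erythroid lineage (chrX:7959260-7976663, minus strand), had 0.639 FPKM in WT wounds and 0.0742 FPKM in PU.1-/- wounds. The WT level was 8.61 times higher, from about 15 and 2 reads, and the 95% counting interval of PU.1-/- over WT was 0.0129 to 0.499. With the lower value raised to 0.1 FPKM the log2 ratio was -2.68. Both levels were under 1 FPKM, so the gene was not counted as lower when values below 1 FPKM were raised to 1. Its direction was opposite to that of Hba-a1, Hbb-bs, Alas2 and Slc4a1, whose intervals from the estimated reads lay above 1. For Alas2 the lower bound was 0.766 with the smallest whole read numbers, 11 and 21, which are far fewer than its estimated reads.

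Klf1, the factor that binds CACCC motifs of erythroid genes (chr8:84901982-84905291, plus strand), had 0.218 FPKM in WT wounds and 0.190 FPKM in PU.1-/- wounds. The ratio was 0.871, from about 4 reads in each library, with an interval of 0.162 to 4.67. A difference of up to several-fold in either direction was not detectable at this depth.

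Of 14 further erythroid transcription factors and partners, 13 had at least 0.1 FPKM, 2 were lower, none was higher, and the median log2 ratio was 0.06. Over all genes, 6.49% were lower and 3.47% were higher. Nfe2, a factor of globin and platelet genes, had 4.95 FPKM in WT wounds and 0.751 FPKM in PU.1-/- wounds, and the interval of PU.1-/- over WT was 0.0899 to 0.247. Gata2, a factor of progenitors and mast cells that comes before Gata1 in the erythroid lineage, had 5.06 and 1.34 FPKM, with an interval of 0.202 to 0.349. Lmo2 and Tal1, partners of GATA1 named after their values were seen, had 6.91 and 3.55 FPKM and 0.953 and 1.36 FPKM, both under a 2-fold difference.

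Markers of 3 other blood cell types that use Gata1 were examined beside it, and most mast cell markers were lower in PU.1-/- wounds. By the same 2-fold rule 6.49% of all genes were lower. Of the 10 mast cell markers, a list that also holds Gata2, 9 were lower and none higher, with a summed level of 752 FPKM in WT wounds and 15.5 FPKM in PU.1-/- wounds. Of these, 4 were listed at 0 in PU.1-/- wounds. Tpsb2, a mast cell tryptase, had 224 and 0.788 FPKM, and Cma1, a mast cell chymase, had 223 and 0.436 FPKM. Of the 10 megakaryocyte and platelet markers, 6 had at least 0.1 FPKM and 2 were lower. These were the chemokine genes Pf4, at 635 and 2.35 FPKM, and Ppbp, at 72.0 and 0.217 FPKM. The platelet receptor genes Itga2b (3.19 and 3.83 FPKM) and Gp1bb (5.25 and 4.99 FPKM), named after their values were seen, differed less than 2-fold. Of the 9 eosinophil markers, 5 were listed at 0 in both libraries and 1 was lower, Ear2, at 1.86 and 0 FPKM, and Ccr3 had 0.212 and 0.164 FPKM. The part of these cells in the Gata1, Gata2 and Nfe2 levels was not tested.

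Genes of erythropoietin signalling and iron uptake differed less than 2-fold in all 8 of 10 that had at least 0.1 FPKM, with a median log2 ratio of -0.15. Jak2, the kinase of the erythropoietin receptor, had 37.9 and 43.9 FPKM, the transferrin receptor gene Tfrc 13.8 and 12.3 FPKM, and the iron transporter gene Slc11a2 11.4 and 10.4 FPKM. Of 12 genes of red cell enzymes and maturation, 9 had at least 0.1 FPKM and none differed 2-fold. Gpx1 had 422 and 430 FPKM, Prdx2 273 and 266 FPKM, and Bnip3l, which acts in the clearance of mitochondria, 113 and 123 FPKM. Over the 6 further erythroid lists, 3 of 66 genes with at least 0.1 FPKM were higher and 2 were lower, with a median log2 ratio of 0.00085. By the same rule 3.47% of all genes were higher and 6.49% were lower, so these counts do not set the lists apart. Many of these genes are active in most cells of skin.

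**Figure D4:**
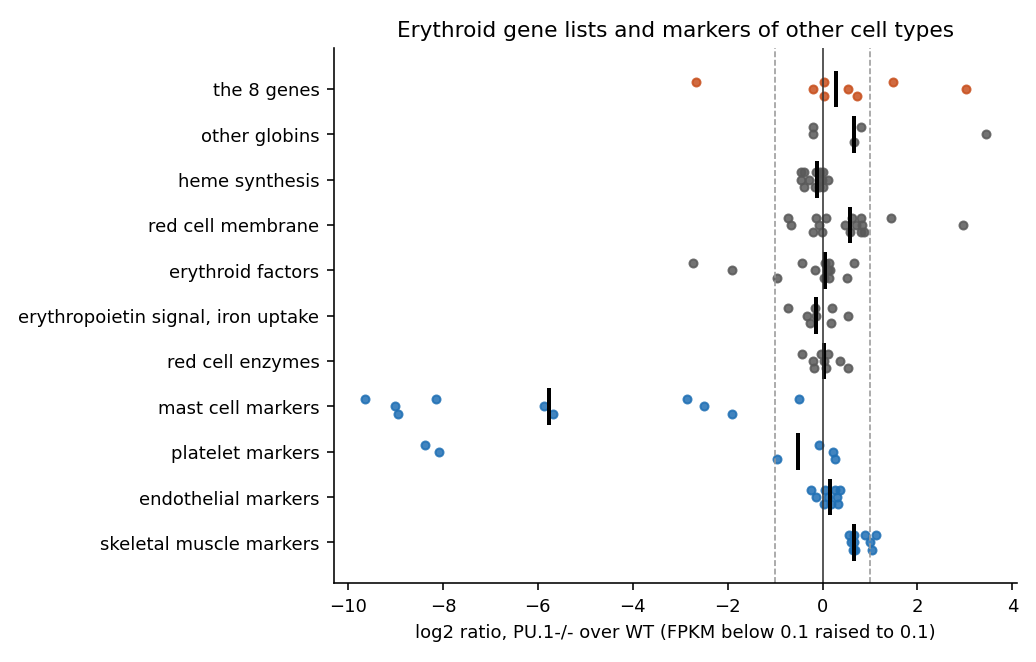
Log2 ratio, PU.1-/- over WT, of every gene with at least 0.1 FPKM in either library (points) in the 8 genes (orange), the 6 further erythroid lists (grey) and 4 marker lists of other cell types (blue); black bars are list medians and dashed lines a 2-fold difference. The medians of the erythroid lists lie between -0.15 and 0.66, those of mast cell markers at -5.77 and of platelet markers at -0.52.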

How the data were processed

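mRNA of WT and PU.1-/- skin wounds, 1 library per genotype, was sequenced as single-end reads of 75 bases from stranded libraries. The authors deposited FPKM values from Cuffnorm, mapped to mm10, and the submitters' processing notes name TopHat2 2.1.1, Bowtie2 2.2.8, SAMtools 0.1.18 and Cuffdiff 2.2.1. The gene annotation is not given in the sources used here. Groups were taken from the genotype labels.

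The 8 genes and all gene lists were chosen with earlier results of these data known. Values below 0.1 FPKM were raised to 0.1 and ratios of at least 2 were counted. No test across animals was possible. Depth was recovered from 458 of 4542 genes under 2 FPKM whose 2 FPKM values stood at 1.15 (WT over PU.1-/-, tolerance 0.001), as equal read numbers give. Its size came from 319 of these genes with 1 RefSeq-linked GENCODE M21 transcript, of which 89 lay in the peak of the estimates, with 200 bases taken off each length. Reads of other genes used the longest such transcript of at least 300 nt, found for 21696 genes, so that intervals can be too narrow where the authors' transcript was shorter. The functions were tested on simulated libraries.

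Genes named were the 8, all globin rows, Spi1, Xist, the 4 Y-linked genes, the 2 genes of highest WT FPKM in each marker list, and, in each erythroid list, those of at least 1 FPKM that differed 2-fold, otherwise the 3 of highest FPKM. Alas1 and the genes said to be so in the text were named after their values were seen, as were Epb42 and Rhag. Some genes of the red cell membrane list are not reported here by name. Epb41 and Epb42 stand in the tables as Epb4.1 and Epb4.2. Marker lists covered mast cells, platelets, eosinophils, macrophages, endothelium, skeletal muscle, fibroblasts and keratinocytes. Alternatives changed the floor, pseudocount, scaling, filter, fold threshold, the rows summed and the read numbers. Scripts ran in Python 3.11.15 with scipy 1.17.1, numpy 2.4.6, pandas 2.3.3 and, for plots, matplotlib 3.10.9.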

Additional observations from a re-analysis of the deposited data

How the results depend on the processing

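Of 124 alternative values over 25 results, 27 lay outside the range set for each result. A change of sign was checked for the log2 ratios of Hbb-bs, Slc4a1 and Gata1, and none was found. Counts and medians were checked only for a shift in size. With values below 1 FPKM raised to 1, or with a pseudocount of 1 FPKM, 1 of the 8 genes (Hbb-bs) was higher and 0 were lower. With a 3-fold threshold 1 was higher, and with only genes of at least 1 FPKM 0 were lower, since Gata1 is then not tested. The median log2 ratio of the 8 genes was 0.63 over those of at least 1 FPKM. The log2 ratio of Slc4a1 was 0.52 with the floor of 1 and 0.68 with the pseudocount of 1, and that of Gata1 was 0 with the floor of 1. The beta globin ratio was 1.21 with equal FPKM sums after leaving out small RNA genes, a scaling that put the log2 ratio of Hbb-b1 at 0.09. The further erythroid lists held 2 called genes with the floor of 1, 3 with the pseudocount of 1, 3 with only genes of at least 1 FPKM and 18 at 1.5-fold, against 5. Over all genes, 565 were higher, and 164 were with the floor of 1, 89 with the pseudocount of 1, 226 with the filter at 1 FPKM, 1410 at 1.5-fold and 150 at 3-fold. Likewise 1057 were lower, and 463, 461, 589, 1867 and 681 were under the same settings. With the smallest whole read numbers that give its ratio, the lower bound for Alas2 was 0.766 instead of 1.44. These were 11 and 21 reads, against about 302 and 577 estimated from depth and length. Hbb-bt matched no symbol used here, so that adding it to the beta globin sum gave no value. No replicate could be left out and no paired analysis was possible because there was 1 library per genotype. Depth limits genes such as Klf1, Gata1, Hbb-y, Icam4 and Epb42, which rest on at most 15 reads in either library.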

Other observations

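Marker lists of skin cells and macrophages give the tissue in which the erythroid genes were measured. The 10 macrophage markers were all lower in PU.1-/- wounds, with a summed level of 566 FPKM in WT wounds and 5.79 FPKM in PU.1-/- wounds. The complement genes C1qb (123 FPKM) and C1qc (110 FPKM) of WT wounds were listed at 0 in PU.1-/- wounds. None of the 10 fibroblast markers differed 2-fold, with a median log2 ratio of 0.17. The collagen gene Col3a1 had 1042 and 1110 FPKM, and Dcn, the decorin gene, 690 and 959 FPKM. None of the 9 keratinocyte markers differed 2-fold, with a median log2 ratio of 0.18. The basal keratin gene Krt14 had 4659 and 5195 FPKM, and the suprabasal keratin gene Krt10 had 2291 and 2602 FPKM.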
